A study of Mus musculus with 36 samples.

Results

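The genes described are the xenobiotic receptors CAR (Nr1i3) and PXR (Nr1i2), their shared partner RXR alpha (Rxra), the cytochrome P450 genes Cyp2b9, Cyp2b10, Cyp2b13, Cyp3a11, Cyp3a13 and Cyp3a25, and Por, which encodes the reductase that passes electrons to microsomal P450 enzymes. These 10 genes were chosen by name from 53715 gene identifiers in the count table, and all 10 passed the filter on low counts, as did 14068 genes in all. RNA was sequenced from the livers of 36 male C57BL/6 mice, 12 on each of 3 diets. Control mice ate the AIN93G diet, red mice ate that diet with 10% red tomato powder by weight, and tangerine mice ate it with 10% tangerine tomato powder. The mice were assigned to diets at 4 weeks of age and were 10 weeks old at sampling. The question was whether eating tomato, and which type of tomato, altered expression of genes for drug and xenobiotic metabolism in liver. Library totals ranged from 21290169 to 33810573 counts.

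CAR and PXR are nuclear receptors that bind foreign chemicals, bile acids and steroids, pair with RXR, and switch on genes for detoxifying enzymes in hepatocytes. CAR is classically read out by Cyp2b10, the phenobarbital-inducible P450, and PXR by Cyp3a11, the main inducible Cyp3a gene of mouse liver. Cyp2b9 and Cyp2b13 are better known for higher expression in female than in male liver. Cyp3a13 and Cyp3a25 are further Cyp3a enzymes, expressed constitutively in hepatocytes. Every one of these enzymes draws electrons from the reductase encoded by Por.

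Promoter stretches of 5 of the P450 genes are shown because they let the reader compare the close Cyp2b relatives and the placement of the receptor hexamer in Cyp2b and Cyp3a genes. The sequences are from RefSeq on build GRCm38.p6, read 5′ to 3′ on the gene's strand. They start 250 bases before the gene start and end 51 bases before it, or 111 bases before it for Cyp3a11. Distances are from the RefSeq start, which for these genes other than Cyp3a25 differs from the GENCODE gene start given further on. Capitals mark matches on either strand to a receptor hexamer, the element that paired nuclear receptors bind; the hexamers searched were AGGTCA, and the variant AGTTCA, then GGGTCA, and last GGTTCA.
Cyp2b10, chr7:25897408-25897607 (+ strand): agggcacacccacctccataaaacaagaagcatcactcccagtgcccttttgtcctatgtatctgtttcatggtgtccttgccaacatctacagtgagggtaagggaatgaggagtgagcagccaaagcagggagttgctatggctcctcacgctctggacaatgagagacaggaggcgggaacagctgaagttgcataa
Cyp2b9, chr7:26173159-26173358 (+ strand): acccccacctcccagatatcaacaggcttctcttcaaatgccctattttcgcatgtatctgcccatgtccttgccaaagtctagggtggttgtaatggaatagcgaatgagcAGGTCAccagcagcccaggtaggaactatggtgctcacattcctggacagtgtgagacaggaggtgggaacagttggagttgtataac
Cyp2b13, chr7:26061245-26061444 (+ strand): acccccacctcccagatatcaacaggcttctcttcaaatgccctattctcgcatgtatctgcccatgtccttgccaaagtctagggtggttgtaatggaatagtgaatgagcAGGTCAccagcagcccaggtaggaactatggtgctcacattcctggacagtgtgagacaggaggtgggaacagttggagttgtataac
Cyp3a11, chr5:145879965-145880104 (- strand): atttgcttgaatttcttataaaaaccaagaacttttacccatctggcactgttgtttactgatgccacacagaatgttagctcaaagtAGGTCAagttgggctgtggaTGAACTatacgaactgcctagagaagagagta
Cyp3a25, chr5:146009669-146009868 (- strand): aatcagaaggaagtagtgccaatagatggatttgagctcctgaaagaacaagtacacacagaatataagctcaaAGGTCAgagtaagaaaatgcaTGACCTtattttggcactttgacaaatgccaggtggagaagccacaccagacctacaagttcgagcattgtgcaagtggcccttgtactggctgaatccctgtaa

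The Cyp2b9 and Cyp2b13 promoters were identical at 248 of 250 positions (99.2%). Their differences, counted from 1 at the 5′ end of the printed stretch with the Cyp2b9 base first, were T48C and C104T. Cyp2b10 was identical to each of them at 182 of 260 aligned columns (70.0%) and held none of the hexamers in its 250 bases. Each of Cyp2b9 and Cyp2b13 held AGGTCA at bases -138 to -133. Cyp3a11 held AGGTCA at -162 to -157 and TGAACT at -142 to -137, and Cyp3a25 held AGGTCA at -176 to -171 and TGACCT at -155 to -150. Of 32851 promoters of the same length, 38.6% held at least 1 such hexamer, so a match describes these letters and not a binding site. Paired hexamers were also searched, as direct repeats 3 or 4 bases apart (DR3, DR4) or everted repeats 6 apart (ER6). No member held such a pair, and each kind was found in at most 0.067% of promoters. Bases farther upstream were not searched, for Cyp2b10 or any other member. The second annotated start of Rxra had 3 matches, and none lay in the promoters of Por, Nr1i2 or Cyp3a13. Nr1i3 held the E-box CACGTG at -244 to -239, found in 6.02% of promoters.

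By GENCODE release M21 on GRCm38, the Cyp2b genes lie together on chromosome 7 (+ strand), Cyp2b10 at chr7:25897620-25926624, Cyp2b13 at chr7:26061497-26096197 and Cyp2b9 at chr7:26173411-26210661. Cyp3a13, Cyp3a11 and Cyp3a25 lie on chromosome 5 (- strand) at chr5:137892932-137921619, chr5:145854426-145879964 and chr5:145977194-146009618, and Por lies on the + strand at chr5:135670033-135735326. Nr1i2 lies at chr16:38248323-38294824 (- strand), Rxra at chr2:27676440-27762957 (+ strand) and Nr1i3 at chr1:171213970-171220701 (+ strand). All counts are per gene. Whether they cover exons alone or whole gene spans with introns is not given in the sources used here. The zero counts of genes nested in other genes, given below with Nr1i3, are those that a count of whole spans would give.

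Libraries were compared before the genes were. The summed hepatocyte markers ranged from 91956.9 to 130721 CPM (the gene's count scaled by the library's TMM-adjusted size), with none of 8 markers at 0 in every library of a diet. Red mouse 186 carried 223 counts of adipose markers and 5551 of T cell markers, against at most 6 and 99 in any control, and tangerine mouse 216 carried 302 counts of pancreas markers against at most 1. Tangerine mouse 192 held cholangiocyte markers at 111 CPM, against at most 30.3 in a control. The lowest control sums were 44.3 CPM for endothelial and 69.3 CPM for Kupffer cell markers, against control medians of 139 and 173. The part of these in the results was not tested. The libraries also fell into 2 sets with nothing between them, seen in Cyp2b13 and in Vma21, the gene most like it. The lower set held 16 libraries (4 control, 8 red, 4 tangerine) with Vma21 at log2 CPM 3.999 to 4.39, and the higher set held 20 (8 control, 4 red, 8 tangerine) with Vma21 at 4.99 to 5.40. Of 14068 genes, 291 were higher in every library of the higher set than in any of the lower set, and 2 were lower. The 291 genes had a median GC content of 40.2%, against 49.4% for the other genes, with a transcript for 99.7% and 99.9% of them. No label names a batch, and the origin of the sets was not tested. The sets were found after the data were seen, from a gene picked for its likeness to Cyp2b13, and are not groups of the study. Values within a set, and any p beside them, describe these livers and are not planned tests of diet.

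None of the 10 genes passed the threshold (edgeR's quasi-likelihood test, Benjamini-Hochberg adjusted p under 0.05 over all genes) in any diet comparison. The share of all genes called was 0.149% for red against control (0.0498% higher and 0.0995% lower). It was 0.0142% for tangerine against control, all higher. For tangerine against red it was 1.71% (0.732% higher and 0.981% lower), and for both tomato diets against control 0.00711%, all higher. Without adjustment, p was under 0.05 for 3 members in red against control (Cyp2b10 and Cyp3a11 higher, Cyp2b13 lower), for 1 in tangerine against control (Cyp2b10) and for 2 in tangerine against red (Cyp2b13 and Por higher). For both tomato diets against control it was 1 (Cyp2b10). Over all genes, 13.3% had such a p in red against control (6.67% higher and 6.63% lower) and 5.47% in tangerine against control (2.32% higher and 3.16% lower). The shares were 15.1% in tangerine against red (6.6% higher and 8.52% lower) and 6.77% for both diets against control (3.05% higher and 3.72% lower). In whole liver, fewer cells of a type and less RNA per cell cannot be told apart. The test of any difference among the 3 diets called 1.18% of all genes and none of the 10, with Cyp2b10 the member at unadjusted p = 0.0217 and 13.9% of all genes under 0.05. DESeq2 called none of the members to which it gave an adjusted p, with 3, 1 and 2 members at unadjusted p under 0.05. It gave no adjusted p for Cyp2b10 on red (p = 0.00875 by DESeq2) or on tangerine (p = 0.00306 by DESeq2) against control. Cyp2b9 and Cyp2b13 also had none in tangerine against control, so these could not be called. Limma-voom with sample weights called 1 member, Cyp2b13, in red against control and in tangerine against red. Of 14068 genes it called 1482 in the first comparison and 732 in the second.

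**Figure D1:**
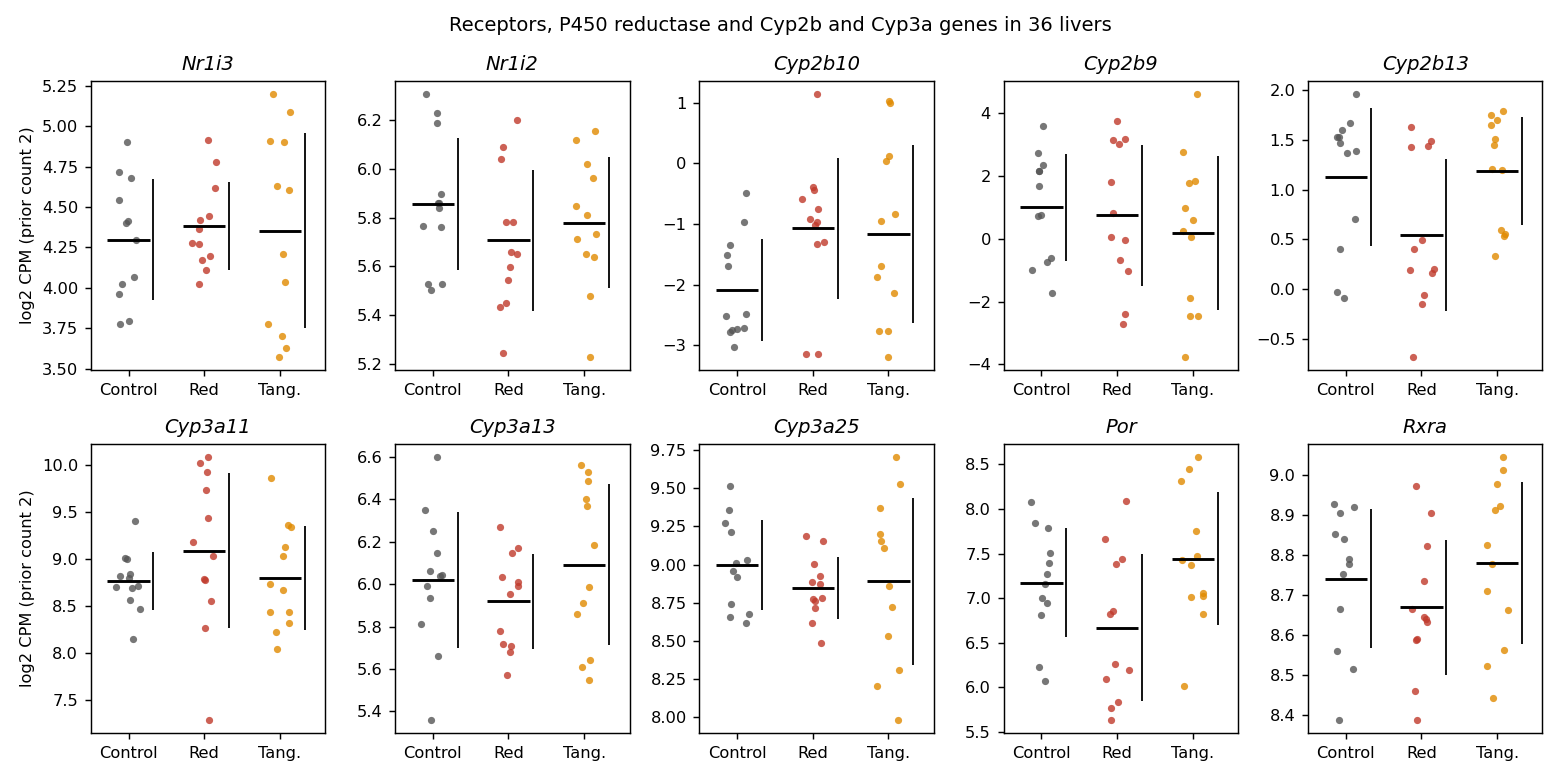
Log2 CPM (prior count 2) of each gene in 36 livers, by diet (12 points each). Horizontal bars are means and vertical lines are 1 SD; the panels have separate y axes. Cyp2b10 shows more high points on both tomato diets, and Cyp2b13 splits into an upper and a lower cluster on every diet.

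**Figure D2:**
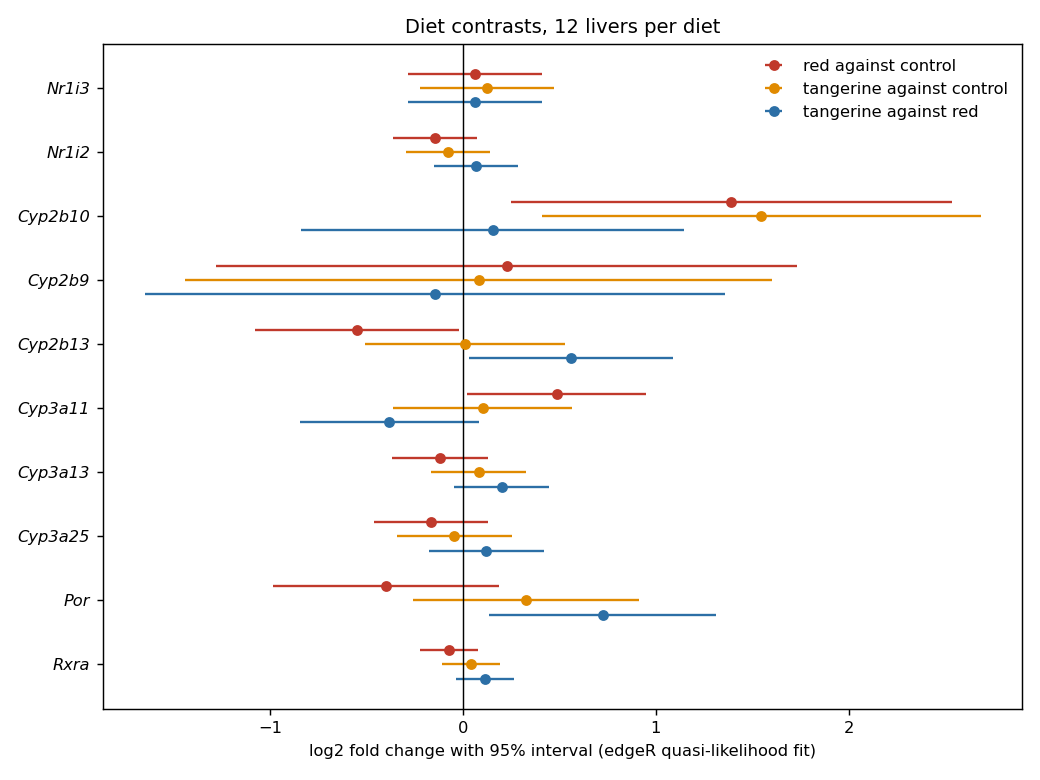
Fitted log2 fold change (x axis) with 95% interval for each gene (y axis) in 3 diet comparisons, 12 livers per diet. The intervals of Cyp2b10 against control lie above 0 on both tomato diets, from 0.25 to 2.53 for red and from 0.41 to 2.68 for tangerine. Those of Cyp3a11 (0.02 to 0.95) and Cyp2b13 (-1.08 to -0.02) for red against control also leave out 0. Between the tomato diets those of Cyp2b13 and Por do so. Each interval is for a gene alone, without adjustment, and no gene shown passed the threshold.

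The abundance of the genes in control livers spanned a wide range per length of exon. If reads in introns were also counted, these levels and their order would not be levels per length of mRNA. A count over whole spans would give the zero counts of nested genes described below with Nr1i3. Cyp3a25 stood highest at 250.2 ± 52.6 CPM per kilobase (SD, n = 12), above Cyp3a11 in 12 of 12 control livers. By this length, Cyp3a11 (87.1 ± 19.3) and Rxra (78.8 ± 9.09) did not differ beyond their spread, Cyp3a11 being higher in 7 of 12. The length is that of all annotated exons joined, 5093 bases for Cyp3a11 and 5462 for Rxra. Their longest transcripts have 2802 and 4905 bases, so the placing of Cyp3a11 beside Rxra depends on the length used. Por followed at 38.8 ± 15.3, then Nr1i2 at 23.0 ± 4.44 and Cyp3a13 at 22.4 ± 4.90, which were not separated (Nr1i2 higher in 8 of 12). Cyp2b9 (1.80 ± 1.84) and Cyp2b13 (1.24 ± 0.504) were not separated either (6 of 12), and Cyp2b10 was lowest at 0.0977 ± 0.0873. Nr1i3 is left out of this order for the reason given with its counts.

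The counts behind Nr1i3 cover only a part of the gene. Of its 4414 exon bases, 3936 (89.2%) lie within the span of Tomm40l, a gene on the opposite strand. In this table, 724 of 731 protein-coding genes whose whole span lies inside genes on the opposite strand were at 0 in every library, against 2718 of 11931 genes with no overlap (22.8%). The values are those that a count dropping reads in overlapping gene spans, without strand, would give, although the counting rule is not given in the sources used here. The level of Nr1i3 is therefore not comparable with that of other genes, while its differences between libraries would then rest on the bases outside Tomm40l.

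The receptors differed little in mean between diets. Nr1i3 had a lowest, median and highest CPM of 13.6, 20.3 and 29.8 in controls, 16.2, 19.9 and 30.0 on red and 11.8, 21.4 and 36.6 on tangerine. The diets overlapped, and the tangerine livers were the most spread, with 3 above and 3 below every control. The coefficient of variation of Nr1i3 was 26.0% in controls, 19.9% on red and 40.7% on tangerine. The fitted log2 change was 0.07 (SE 0.17) for red and 0.13 (SE 0.17) for tangerine against control, with 95% intervals of -0.28 to 0.41 and -0.22 to 0.47. Within the lower library set the log2 difference of tangerine against red was -0.59 (SE 0.18, adjusted p = 0.171 by edgeR), and in the higher set it was 0.35 (SE 0.25, adjusted p = 0.536). The opposite signs of these values were not tested against each other.

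Nr1i2, which encodes PXR, ranged from 45.2 to 79.0 CPM in controls, 37.8 to 73.3 on red and 37.4 to 71.2 on tangerine, with overlap throughout. Its log2 change was -0.15 (SE 0.11) on red and -0.08 (SE 0.11) on tangerine, with 95% intervals of -0.36 to 0.07 and -0.30 to 0.14. Rxra, the obligate partner of both receptors, was the steadiest gene, with a coefficient of variation of 11.5% to 13.7% in each diet. It measured 431 ± 49.6 CPM in controls, 409.9 ± 48.5 on red and 444 ± 60.9 on tangerine (SD, n = 12). Its log2 differences were -0.07 (SE 0.07) for red and 0.04 (SE 0.07) for tangerine against control.

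Cyp2b10, the classic CAR target, was near the limit of detection. Counts ran from 1 to 16 per library in controls, 1 to 56 on red and 1 to 51 on tangerine. In CPM the lowest, median and highest values were 0.05004, 0.104 and 0.640 in controls, 0.0393, 0.445 and 2.13 on red and 0.0360, 0.339 and 1.97 on tangerine. The diets overlapped, yet 10 of 12 red and 9 of 12 tangerine livers lay above the control median, and 3 red and 4 tangerine livers lay above every control. The mean was 0.206 ± 0.184 CPM in controls, 0.553 ± 0.538 on red and 0.629 ± 0.693 on tangerine. The fitted log2 change was 1.39 on red (SE 0.56, unadjusted p = 0.0185, adjusted p = 0.275 by edgeR) and 1.55 on tangerine (SE 0.56, p = 0.00908, adjusted p = 0.683), which did not pass. With 1 coefficient for both tomato diets it was 1.47 (SE 0.51, p = 0.00628, adjusted p = 0.562 by edgeR). These comparisons share the control livers. Tangerine and red differed by 0.15 (SE 0.49, 95% interval -0.84 to 1.15).

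The higher library set alone gave a log2 difference of Cyp2b10 from control of 1.63 for red (SE 0.67). For tangerine it was 2.15 (SE 0.56, adjusted p = 0.147 by edgeR). In the lower set these were 1.06 (SE 0.87) and -0.53 (SE 1.16). With the set in the fit, the values over all libraries were 1.61 and 1.48. Without red 186 and tangerine 216 they were 1.42 and 1.47. Limma-voom with sample weights gave 0.93 (SE 0.61, adjusted p = 0.34) and 1.20 (SE 0.61, adjusted p = 0.604). Of windows of 50 bases along Cyp2b10, 8.70% occur in another gene, most of them in Cyp2b13, so reads there cannot be assigned with certainty.

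Cyp2b9 varied most between mice on the same diet. Its lowest, median and highest CPM were 0.227, 2.36 and 12.0 in controls, 0.0791, 1.33 and 13.3 on red and 0, 1.27 and 24.2 on tangerine. The diets overlapped across nearly the whole range, and the highest liver was a tangerine one. The log2 change was 0.23 (SE 0.74) on red and 0.08 (SE 0.75) on tangerine, with intervals reaching from -1.28 to 1.73 and from -1.44 to 1.603. In the lower set, tangerine livers averaged 0.331 CPM against 3.97 in controls (4 each), and in the higher set 5.28 against 3.07 (8 each). The log2 differences were -3.56 (SE 1.69, adjusted p = 0.419) and 0.76 (SE 0.78, adjusted p = 0.765 by edgeR).

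**Figure D3:**
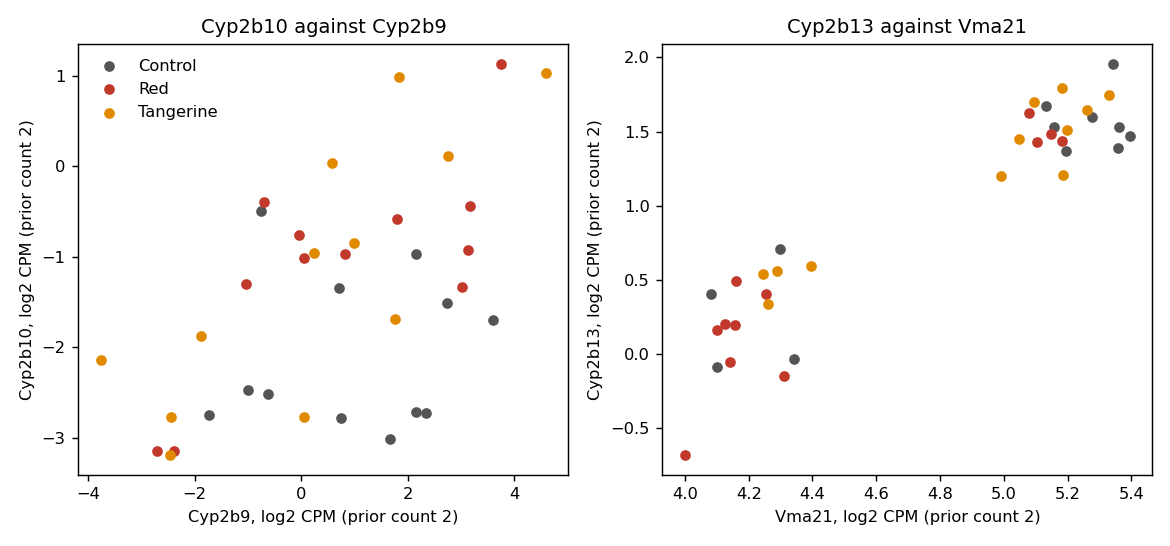
Left, log2 CPM (prior count 2) of Cyp2b10 against Cyp2b9, and right, of Cyp2b13 against Vma21, for 36 livers coloured by diet. On the right the livers form 2 separate clusters, with Cyp2b13 from -0.68 to 0.71 in the lower and from 1.20 to 1.96 in the higher set.

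Cyp2b13 followed the library sets. Its lowest, median and highest CPM were 0.869, 2.62 and 3.81 in controls, 0.550, 1.17 and 3.01 on red and 1.19, 2.44 and 3.39 on tangerine. The diets overlapped, and only 3 of 12 red livers exceeded the control median. The log2 change of red against control was -0.55 (SE 0.26, unadjusted p = 0.0423, adjusted p = 0.359 by edgeR), and that of tangerine against red was 0.56 (SE 0.26, unadjusted p = 0.0388, adjusted p = 0.299). With the library set in the fit these became -0.16 (SE 0.12, adjusted p = 0.546 by edgeR) and 0.21 (SE 0.11, adjusted p = 0.368). Within the lower set red differed from control by -0.18 (SE 0.21) and within the higher set by -0.07 (SE 0.13). Cyp2b13 lay in log2 CPM from -0.68 to 0.71 in the lower set and from 1.20 to 1.96 in the higher set, without overlap, as did 2.08% of all genes tested. Limma-voom called Cyp2b13 in both comparisons (-0.97, adjusted p = 0.0161, and 0.86, adjusted p = 0.0382), in a fit that did not hold the set. That fit called 1482 and 732 of 14068 genes. The set was found from the likeness of Vma21 to Cyp2b13, so its agreement with Cyp2b13 was part of the choice. The lower set held 8 of 12 red livers. Smaller diet values of Cyp2b13 with the set in the fit, or within a set, follow in part from that choice. They cannot tell diet from library set. Of 50-base windows of Cyp2b13, 27.3% occur in another gene, most in the pseudogene Gm45225.

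Cyp3a11 was higher in mean on red, with a much wider spread. Its lowest, median and highest CPM were 283, 432 and 679 in controls, 156, 551 and 1087 on red and 263, 417 and 932 on tangerine. Of 12 red livers, 5 were above every control and 1 was below every control, so the diets overlapped. The coefficient of variation was 22.1% in controls, 49.1% on red and 41.0% on tangerine. Red differed from control by 0.49 in log2 (SE 0.23, unadjusted p = 0.0408, adjusted p = 0.356 by edgeR) and tangerine by 0.10 (SE 0.23, 95% interval -0.36 to 0.57). Within the higher set the red difference was 0.75 (SE 0.23, adjusted p = 0.298 by edgeR), and within the lower set 0.33 (SE 0.42). Without red 186 and tangerine 216 it was 0.41 (SE 0.23, adjusted p = 0.454 by edgeR). Limma-voom with sample weights gave 0.17 for red against control (SE 0.23, adjusted p = 0.685) and -0.09 for tangerine against red, where edgeR gave -0.38. Cyp3a11 shared no 50-base window with Cyp3a13 or Cyp3a25, and 6.73% with other genes.

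Cyp3a13 and Cyp3a25 differed from control by no more than their spread. Cyp3a13 measured 66.3 ± 14.5 CPM in controls, 61.1 ± 9.39 on red and 70.2 ± 17.9 on tangerine (SD, n = 12). Cyp3a25 measured 521 ± 109.6, 465 ± 66.6 and 506 ± 184. The tangerine livers ranged from 252 to 836 for Cyp3a25, with 2 above and 4 below every control, while red livers stayed between 358 and 582. The log2 changes were -0.12 (SE 0.12) and -0.17 (SE 0.15) on red, and 0.08 (SE 0.12) and -0.04 (SE 0.15) on tangerine, for Cyp3a13 and Cyp3a25. Of Cyp3a25, 26.8% of 50-base windows occur in another gene, nearly all in Cyp3a59.

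Por was the member with the largest difference between the tomato diets. Its lowest, median and highest CPM were 67.2, 148 and 269.6 in controls, 49.6, 94.8 and 272 on red and 64.4, 169 and 384 on tangerine. The diets overlapped, with 11 of 12 tangerine livers above the red median and 3 red livers below every control. The log2 difference of tangerine against red was 0.73 (SE 0.29, unadjusted p = 0.017, adjusted p = 0.21 by edgeR), made of -0.40 (SE 0.29) for red and 0.33 (SE 0.29) for tangerine against control. The difference of the tomato diets was 0.63 (SE 0.31) with the library set in the fit, and 0.52 (SE 0.29) without red 186 and tangerine 216. Limma-voom gave -0.63 for red (adjusted p = 0.14) and 0.21 for tangerine (adjusted p = 0.874) against control. For tangerine against control the log2 value was also 0.20 without the 2 libraries, 0.14 with mouse number and 0.05 with the clock score described next. With that score as a covariate, the difference of the tomato diets was -0.24 (SE 0.21, adjusted p = 0.671 by edgeR).

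The clock score summarises the circadian clock genes of a liver. It is the leading component of log2 CPM of 10 clock genes (84.2% of their variance), signed so that a high score means high Dbp, which encodes an output factor of the clock. The score was 0.81 ± 2.67 in controls, -2.38 ± 2.17 on red and 1.57 ± 1.95 on tangerine (SD, n = 12). Sampling times are not given in the labels, so time of sampling and diet cannot be told apart. Correlations were therefore taken within each diet, 30 relations in all, and 5 had a Benjamini-Hochberg adjusted permutation p under 0.05. The share of all genes that would pass such a test with the score was not computed.

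**Figure D4:**
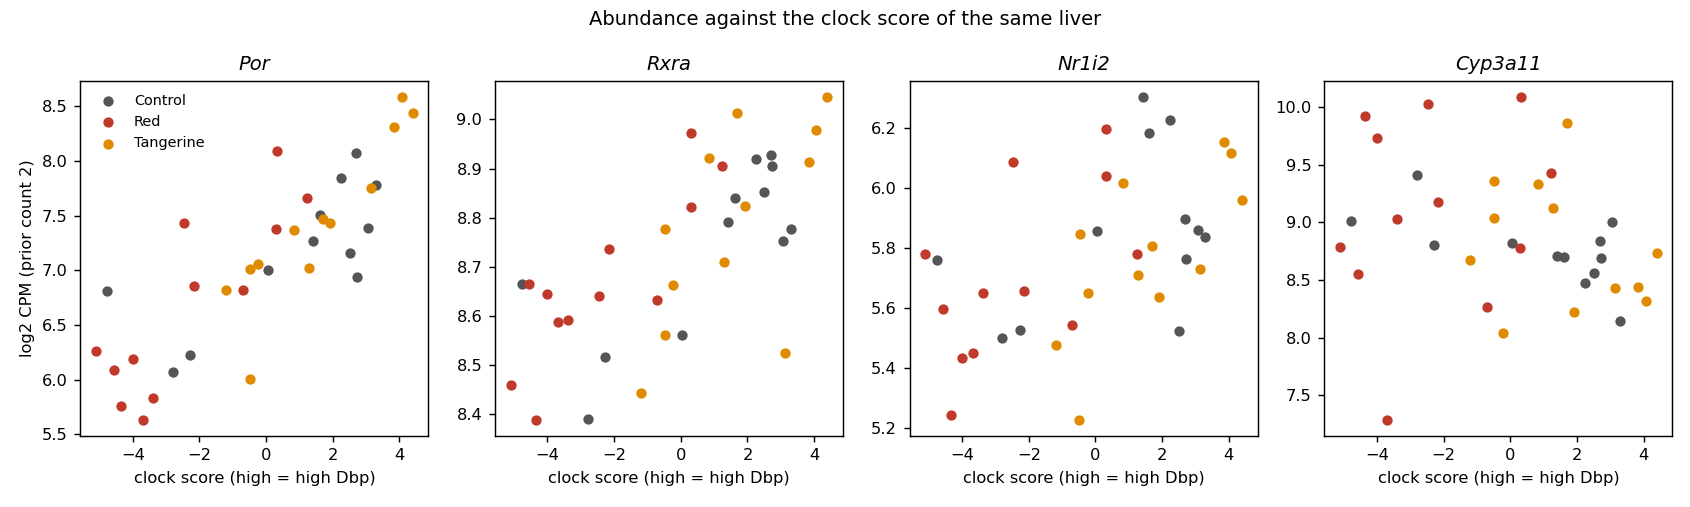
Log2 CPM (prior count 2, y axis) of Por, Rxra, Nr1i2 and Cyp3a11 against the clock score (x axis) of the same liver, 36 livers coloured by diet. Por climbs with the score on every diet, with r from 0.75 to 0.91, while Cyp3a11 has no common slope.

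Por tracked the clock score in each diet, and Rxra in controls and on red. Por gave Pearson's r of 0.75 in controls (adjusted permutation p = 0.0385), 0.85 on red (0.0084) and 0.91 on tangerine (0.0009). Spearman's rho was 0.66, 0.75 and 0.96 (adjusted permutation p = 0.126, 0.0987 and 0.0003). Rxra gave r of 0.76 in controls (adjusted permutation p = 0.0385), 0.84 on red (0.006) and 0.62 on tangerine (0.115), with rho of 0.59, 0.73 and 0.66 (adjusted permutation p = 0.189, 0.0993 and 0.126). Leaving out the 2 livers farthest from the median score left r of 0.76, 0.75 and 0.90 for Por and 0.81, 0.71 and 0.39 for Rxra. After that only the Por relation on tangerine passed (adjusted permutation p = 0.0012), over 10 livers. Por was also taken within 8 livers per diet, those of the higher library set for controls and tangerine and of the lower set for red. There Por gave r of 0.74 in controls, 0.78 on red and 0.93 on tangerine (exact permutation adjusted p = 0.151, 0.132 and 0.0394).

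Nr1i2 moved with the score less closely, with r of 0.40, 0.58 and 0.69 in the 3 diets (adjusted permutation p = 0.392, 0.139 and 0.0568), and did not pass. Cyp3a11 gave r of -0.62 in controls, 0.17 on red and -0.28 on tangerine, and Cyp2b10 gave 0.09, 0.28 and -0.03. Neither of these passed in any diet.

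Pairs of members were then compared across the 36 livers with the diet means removed. Of 34 pairs fixed for the receptors, the families and Por, 20 had a Benjamini-Hochberg adjusted permutation p under 0.05, and 18 did with the mean of each diet and library set removed. It was 17 without the 2 farthest livers and 15 with the first principal component of all genes (16.9% of variance) removed. The share of all gene pairs that would pass this test was not computed, so these counts have no background beside them. The 5 closest pairs joined CAR with Cyp3a13 and Cyp3a25, these Cyp3a genes with each other, and Por with PXR and RXR alpha. Nr1i3 with Cyp3a25 gave r = 0.84 (rho = 0.84) and Cyp3a13 with Cyp3a25 gave 0.83 (rho = 0.80). Nr1i2 with Por gave 0.79 (rho = 0.77), Nr1i3 with Cyp3a13 gave 0.76 (rho = 0.75) and Rxra with Por gave 0.76 (rho = 0.77). Each of these 5 had an adjusted permutation p of 4.86e-05, and 0.81, 0.82, 0.73, 0.74 and 0.74 without the 2 farthest livers. With set means removed r was 0.83, 0.75, 0.81, 0.80 and 0.79. Within diets, Nr1i3 with Cyp3a25 gave 0.76 in controls, 0.34 on red and 0.96 on tangerine, and within the sets 0.54 in the lower and 0.95 in the higher. Nr1i3 with Cyp3a13 gave 0.54, 0.51 and 0.96 in the 3 diets, and Cyp3a13 with Cyp3a25 gave 0.79, 0.52 and 0.95. These 3 pairs were closest on tangerine, where Nr1i3 and Cyp3a25 also spread most, and the differences between diets and sets were not tested. Nr1i2 with Por gave 0.65, 0.83 and 0.86, and Rxra with Por gave 0.83, 0.82 and 0.68. Nr1i3 with Nr1i2 gave 0.67 (rho = 0.74), and Nr1i2 with Rxra gave 0.66 (rho = 0.65). Among 14049 genes that are not members, the 99th percentile of r was 0.67 with Nr1i3 and 0.64 with Nr1i2.

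**Figure D5:**
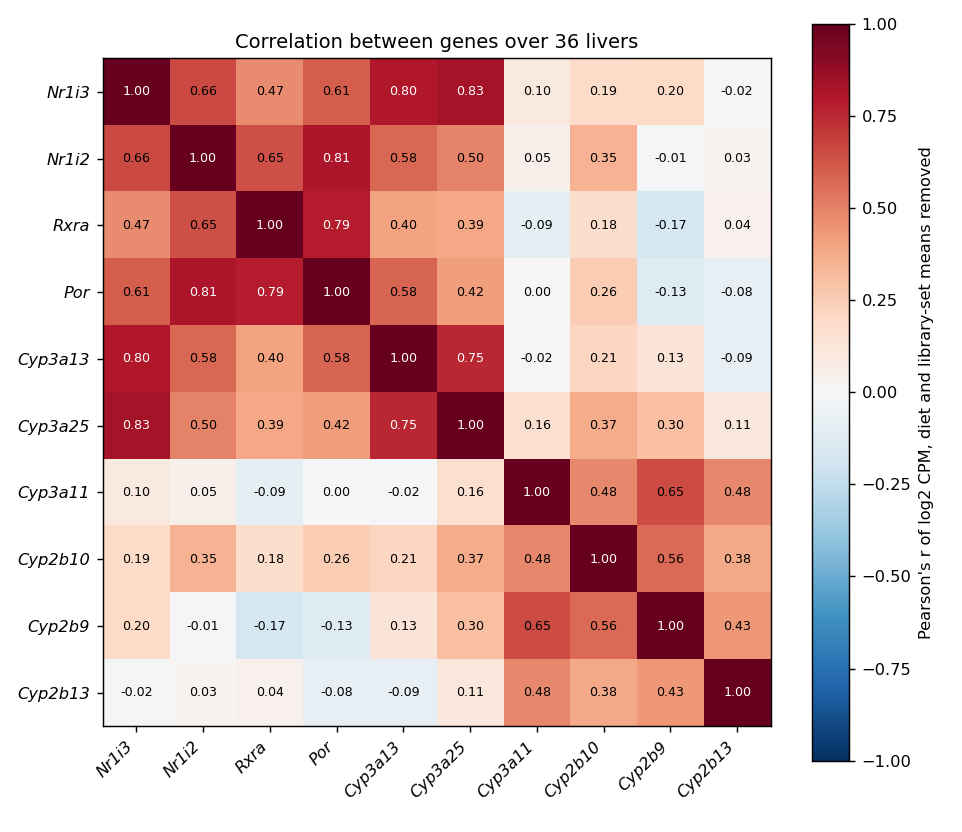
Pearson's r between log2 CPM of the 10 genes over 36 livers after the mean of each diet and library set was removed (red positive, blue negative). The receptors, Por, Cyp3a13 and Cyp3a25 form a block of positive values up to 0.83. Cyp3a11 lies outside it, with 0.48 for Cyp2b10, 0.65 for Cyp2b9 and 0.48 for Cyp2b13.

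The transcript of Cyp3a11, the usual readout of PXR, did not follow the transcript of that receptor. Receptor activity was not measured. Cyp3a11 gave r of 0.09 with Nr1i2 (rho = 0.08, adjusted permutation p = 0.717), 0.06 with Rxra and 0.05 with Por. It gave 0.18 with Cyp3a13 and 0.33 with Cyp3a25, and none of these pairs passed. With Nr1i2 the sign differed between library sets, at 0.51 in the lower set and -0.50 in the higher set (permutation p = 0.0424 and 0.0263, not adjusted), and this difference was not tested. With diet and set means removed, Cyp3a11 gave r of 0.65 with Cyp2b9, 0.48 with Cyp2b10 and 0.48 with Cyp2b13. Those pairs were not among the fixed pairs and were not tested. Cyp2b10 and Cyp2b9 gave r = 0.65 (rho = 0.63, adjusted permutation p = 0.000212), with 0.10 in controls, 0.74 on red and 0.80 on tangerine. The difference of these values between diets was not tested. The control livers held a median of 3 counts of Cyp2b10. For Cyp2b13, whose values fall into 2 clusters, r is given within each: 0.44 with Cyp2b9 in the lower set and 0.44 in the higher set (permutation p = 0.0904 and 0.0557), over 16 and 20 livers. Cyp2b13 with Cyp2b10 gave 0.64 in the lower set and -0.04 in the higher set (permutation p = 0.00705 and 0.863, not adjusted). The difference between the sets was not tested.

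Genes most like each member were taken by Pearson's r over the 36 livers with the diet means removed, among 14049 genes. Cyp3a11 was most like other P450 genes, Cyp3a16 (0.90), Cyp2c39 (0.88) and Cyp2c38 (0.88), above the 99th percentile of 0.57. Por was most like Upp2 (0.90), Rhbdd2 (0.90) and Gm32857 (0.87), and Rxra was most like Mtss1 (0.81), Hlf (0.81) and Slc39a14 (0.80). Cyp2b9 was most like Vldlr (0.86), which encodes a lipoprotein receptor, Cyp4a14 (0.80), which encodes a fatty-acid hydroxylase, and Slc22a26 (0.80). Cyp2b13 was most like Vma21 (0.93), Ube2d3 (0.92) and St6gal2 (0.91), with the 99th percentile at 0.83. Nr1i3 was most like Sirt3 (0.86), C730036E19Rik (0.85) and Gm36251 (0.85), and Nr1i2 most like St3gal5 (0.89), Lims2 (0.87) and N4bp2l1 (0.85). Cyp2b10 was most like Cd59a (0.77), Cyp3a13 most like Aspa (0.88) and Cyp3a25 most like Cyp3a59 (0.93), with which it shares windows of sequence. Each likeness describes these livers, which share diet and library set.

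Other genes of the pathway, from lists with some members known to change in earlier results of these data, are given by their counts. Of 32 other CAR and PXR targets tested, 1 rose on red and 2 rose on tangerine, where 0.149% and 0.0142% of all genes passed. Between tangerine and red 4 were higher and 1 was lower, where 1.71% of all genes passed. The median log2 change of these targets was 0.03 on red and 0.13 on tangerine, beside -0.005 and -0.01 over all genes. Cyp2c29, a P450 gene inducible through CAR, rose from 696 ± 115.9 CPM in controls to 1218 ± 217 on red (log2 0.81, SE 0.09, adjusted p = 2.17e-06 by edgeR). On tangerine it reached 1035 ± 142 (log2 0.57, SE 0.09, adjusted p = 0.00476). Cyp1a2, a hepatic P450 gene also driven by the aryl hydrocarbon receptor, rose on tangerine from 401 ± 70.9 to 583 ± 84.0 CPM (log2 0.54, SE 0.10, adjusted p = 0.0115 by edgeR). Against red it was 0.44 higher (SE 0.10, adjusted p = 0.0155).

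Between the tomato diets, Cyp2a5 (log2 1.02, SE 0.26), Papss2 (0.44, SE 0.12), which makes the sulfate donor for conjugation, and Thrsp (1.05, SE 0.26), a lipogenic factor, were higher on tangerine (adjusted p = 0.0309, 0.0388 and 0.0287 by edgeR). Cyp2c55 was lower on tangerine by 0.54 (SE 0.13, adjusted p = 0.026), and Cyp2c50 differed among the 3 diets (adjusted p = 0.0472 by edgeR). Of 24 receptor partners and regulators tested, 1 passed between the tomato diets, where 1.71% of all genes did. It was Cebpa, a hepatocyte transcription factor (log2 0.31 higher on tangerine than red, SE 0.08, adjusted p = 0.0452 by edgeR). Of 19 genes for P450 electron transfer and haem, 1 passed in the same comparison, the ferredoxin gene Fdx1 (0.24 higher, SE 0.06, adjusted p = 0.0289). Of 5 other Cyp2b and Cyp3a genes tested, none passed, and Cyp3a44 and Cyp3a41a were 0.64 (SE 0.26) and 0.58 (SE 0.35) higher on red than control. Both share windows of sequence with Cyp3a11 (145 of 50 bases for Cyp3a41a and 5 of 100 bases for Cyp3a44). Reads there cannot be assigned with certainty. Of 4 PAR bZip factors, which are clock outputs that regulate P450 genes, Dbp (1.84, SE 0.46) and Tef (1.08, SE 0.26) were higher on tangerine than red (adjusted p = 0.0289 and 0.0271 by edgeR). Of 84 tested genes of these 5 lists, 9 passed between the tomato diets, beside 1.71% of all genes. With mouse number 0 passed, without red 186 and tangerine 216 it was 1, without the low-count filter 2, and with the library set in the fit 5. With the clock score as covariate 0 passed, as did 0 of all genes. Dbp is itself part of that score, and the score differed between the 2 tomato diets, so this fit cannot tell diet from clock.

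Of 10 clock genes tested, 6 passed between the tomato diets, beside 1.71% of all genes. Nr1d2 (log2 0.75, SE 0.17), a repressor in the clock, and Dbp were higher on tangerine (adjusted p = 0.0173 and 0.0289 by edgeR). The activators Npas2, Arntl and Clock and the repressor Cry1 were lower on tangerine by log2 values of -2.51, -1.46, -0.46 and -0.47 (adjusted p = 0.0224, 0.0464, 0.0492 and 0.0497 by edgeR). None of 11 female-biased liver genes tested, among them Cyp2b9 and Cyp2b13, passed in any comparison, nor did any of 13 male-biased genes. Cyp2a4, a female-biased steroid hydroxylase gene, differed by -0.93 on red from control (SE 0.26, adjusted p = 0.107 by edgeR). Cyp4a12b and Elovl3, male-biased genes, differed by 0.35 (SE 0.12) and 0.80 (SE 0.33) on red from control (adjusted p = 0.179 and 0.29 by edgeR).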

How the data were processed

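Per the labels' protocols, liver RNA was extracted with Qiagen kits and cDNA libraries came from a directional NEXTflex kit. The authors deposited raw counts per gene for 36 libraries. The submitters' processing notes name FastQC, Trimmomatic, edgeR and build GRCm38.p6, without roles. The counting program is not given in the sources used here. Symbols and exons were taken from GENCODE M21 by identifier (53620 matched, and 95 without a symbol hold 0.00177% of counts and stay in library sizes). Counts were filtered with filterByExpr, TMM-scaled and fitted with edgeR 4.0.16 (quasi-likelihood, robust), all 36 libraries together, in R 4.3.3. Adjusted p-values are Benjamini-Hochberg over 14068 genes at a threshold of 0.05. Log2 CPM used a prior count of 2. Correlations used two-sided permutation tests with 100000 resamples (the smallest p they give is 1e-05). Tests were tried on simulated counts. Alternatives were DESeq2 1.42.0, limma 3.58.1 and those in the closing section. Named genes were the 10 members, every list gene past the threshold or otherwise the 2 of smallest p in a list, and the 3 most like each member. The members and lists were chosen with earlier results of these data known. Each library carries its own mouse number, and p-values measure the spread between these samples.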

Additional observations from a re-analysis of the deposited data

Results flagged for a closer look

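Marker genes of adipose tissue, pancreas or T cells stood far above the control livers in 2 libraries. Red mouse 186 held 223 counts of adipose markers, against at most 6 in a control, and 5551 counts of T cell markers, against at most 99. Tangerine mouse 216 held 302 counts of pancreas markers, against at most 1 in a control. In red 186 Cyp3a11 was 969 CPM and Cyp2b9 was 8.70 CPM, and in tangerine 216 Cyp2b10 was 0.953 CPM. Their part in the diet differences was not tested beyond leaving both out, which changed no call of the 10 genes.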

How the results depend on the processing

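No paired analysis was possible because no mouse number occurs in more than 1 diet. Of 384 fold changes of the 10 genes recomputed under alternatives, 347 kept their sign and their side of the threshold. DESeq2 values without an adjusted p were counted as not past it. The 35 that changed sign belonged to changes that did not pass, and the cause was not tested. With the clock score as covariate, red against control became 0.056 for Nr1i2, -0.32 for Cyp2b9, 0.29 for Por and 0.11 for Rxra. Tangerine against control became -0.0039 for Cyp2b13. Tangerine against red became -0.26 for Nr1i3, -0.19 for Nr1i2, -0.10 for Cyp2b10, 0.56 for Cyp2b9, -0.077 for Cyp3a25, -0.24 for Por and -0.11 for Rxra. Both diets against control became -0.040 for Cyp2b9, 0.020 for Cyp3a13, 0.17 for Por and 0.055 for Rxra. With limma-voom, Cyp2b9 became -0.85 on red, -1.03 on tangerine and -0.94 on both, Cyp2b13 became -0.11 and Cyp3a13 became -0.019 on tangerine, and Nr1i3 became -0.053 between the tomato diets. With mouse number as covariate, Cyp2b9 became -0.10 on tangerine and Nr1i3 became -0.0061 between the tomato diets. Without red 186 and tangerine 216, tangerine against red became -0.017 for Nr1i3, -0.0015 for Nr1i2 and 0.10 for Cyp2b9. With the library set, which was chosen after seeing the data, Cyp3a13 became 0.029 on red and 0.055 on both diets, Cyp2b9 became -0.17 on tangerine, and both diets became 0.0057 for Por and 0.0021 for Rxra. Between the tomato diets that fit gave -0.056 for Nr1i3, -0.13 for Cyp2b10 and -0.055 for Cyp3a25.

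Limma-voom called 1 member in red against control and 1 in tangerine against red, Cyp2b13 both times, where edgeR called 0. List genes past the threshold in red against control were 1, but 2 under a log2 CPM minimum of 1, 2 without the 2 libraries, 2 with the library set, 6 by DESeq2 and 14 by limma-voom. In tangerine against control they were 2, but 1 with mouse number. In tangerine against red they were 9, but 2 without the filter, 0 with the clock score (which contains Dbp), 0 with mouse number, 1 without the 2 libraries and 5 with the library set. For both diets they were 1, but 2 by limma-voom. All genes past the threshold in red against control were 21, but 59 with the log2 CPM filter, 164 by DESeq2, 1482 by limma-voom, 3 with the clock score and 53 without the 2 libraries. In tangerine against control they were 2, but 6 by DESeq2 and 1 with mouse number. In tangerine against red they were 241, but 136 without the filter, 391 by DESeq2, 732 by limma-voom, 0 with the clock score, 32 with mouse number and 86 without the 2 libraries. For both diets they were 1, but 6 without the filter, 12 by DESeq2, 34 by limma-voom and 2 without the 2 libraries. Relations with the clock score past the threshold were 5, but 1 without the 2 farthest livers and 3 with the difference of Dbp and Arntl. Counts of 1 to 16 per control library limit what Cyp2b10 can show.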
